A study of Caenorhabditis elegans with 2 samples.

Results

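The data are the ZTF-11 binding peaks that lie on the X chromosome of Caenorhabditis elegans. They were taken as every row on X of the authors' list of reproducible peaks, thresholded by irreproducible discovery rate (IDR), on genome build ce11, which gave 324 of 1875 peaks, against 1551 on the 5 autosomes. Binding was measured by chromatin immunoprecipitation and sequencing (ChIP-seq) in whole hermaphrodite larvae of the first stage, harvested 6 h after synchronization by starvation following bleaching. Both samples were of strain OP511, genotype unc-119(tm4063) III; wgIs511, in which the integrated transgene wgIs511 makes ZTF-11 with GFP and FLAG at its C terminus. Chromatin was sonicated and precipitated with an antibody to GFP. There was 1 group with 2 biological replicates and no untagged or mutant group, so all comparisons were between chromosomes within the same lists. Whole larvae were used, so the cell type that gave a peak is unknown, and the peaks are those of the tagged protein made from the transgene.

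ZTF-11 is the C. elegans zinc-finger factor of the MYT1 family, known as a repressor that promotes the making of neurons together with the MuvB complex. The X chromosome of hermaphrodites differs from the autosomes in several known ways. Its genes are turned down by the dosage compensation complex, a condensin-like complex that loads at recruitment elements on X, whose shared motif (MEX) has the core GCGCAGGG. X is also poor in housekeeping genes and operons, and rich in tRNA genes.

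The sequences below are those under the 6 X peaks of highest signal and the 3 strongest X peaks at tRNA genes, shown because the words and genes in them are counted further on. Each is the window from 50 bp before to 50 bp after a summit. The bases are from the plus strand of the RefSeq copy of WBcel235 (the assembly of ce11). The first 6 are named by the coding gene with the nearest 5′ end, and the last 3 by the tRNA gene. In the windows of the 6 strongest X peaks, capitals mark GCGCAGGG or its reverse complement CCCTGCGC.
F20B6.9, chrX:4209220-4209320: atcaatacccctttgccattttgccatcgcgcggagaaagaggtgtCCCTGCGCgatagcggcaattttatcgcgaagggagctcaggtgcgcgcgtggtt
cest-16, chrX:6296510-6296610: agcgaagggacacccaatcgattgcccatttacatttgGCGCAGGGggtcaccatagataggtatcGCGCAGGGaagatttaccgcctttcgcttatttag
nspc-17, chrX:14525865-14525965: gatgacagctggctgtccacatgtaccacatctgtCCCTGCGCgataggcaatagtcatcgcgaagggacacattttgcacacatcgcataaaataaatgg
W02H3.3, chrX:11094134-11094234: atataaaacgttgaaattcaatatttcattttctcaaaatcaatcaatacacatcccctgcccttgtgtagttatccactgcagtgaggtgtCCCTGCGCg
puf-9, chrX:5841253-5841353: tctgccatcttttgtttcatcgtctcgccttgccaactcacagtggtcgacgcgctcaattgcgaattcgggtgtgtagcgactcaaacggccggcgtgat
Y41G9A.17, chrX:2997040-2997140: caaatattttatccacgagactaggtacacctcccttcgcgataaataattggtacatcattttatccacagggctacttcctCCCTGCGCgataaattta
In the windows of the 3 strongest X peaks at tRNA genes, capitals mark bases of the tRNA gene, which lies on the plus strand in each.
C04A11.t1, chrX:13665513-13665613: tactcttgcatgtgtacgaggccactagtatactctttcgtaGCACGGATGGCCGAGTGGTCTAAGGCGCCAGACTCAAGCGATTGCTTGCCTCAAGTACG
F41D9.t3, chrX:8404411-8404511: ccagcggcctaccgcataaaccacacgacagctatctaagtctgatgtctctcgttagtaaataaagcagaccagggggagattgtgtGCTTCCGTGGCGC
C53C7.t1, chrX:13046478-13046578: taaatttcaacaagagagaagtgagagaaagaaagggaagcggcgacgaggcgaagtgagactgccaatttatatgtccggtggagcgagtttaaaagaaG
GCGCAGGG stood in the windows of 5 of the 6 strongest X peaks, with 2 copies at the cest-16 peak. The window at puf-9 held none.

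X carried 18.3 peaks per Mb, against 18.8 on the autosomes, where single chromosomes ranged from 12.2 (V) to 26.6 (III). Per 100 coding genes there were 11.9 peaks on X and 8.995 on the autosomes, where X holds 154 coding genes per Mb against 209 on the autosomes. Single autosomes ranged widely in peaks per 100 coding genes, and 2 of them were above X: III had 13.9 and I had 12.5, while II had 8.76, IV 8.11 and V 5.13. Along X the peaks were spread over the whole chromosome. They ran from a first summit at 353356 to a last at 17545698, with 8 to 29 peaks in each full 1 Mb bin and a median of 19. The left, middle and right parts of equal length held 106, 99 and 119 peaks, against 871, 976 and 884 coding 5′ ends. The median distance between neighbouring X summits was 30.8 kb, 12 of 323 neighbouring pairs were under 1000 bp apart, and the largest gap was 440.1 kb.

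Each difference between X and the autosomes given below was tested by Fisher's exact test, two-sided, on counts of peaks, with Benjamini-Hochberg adjustment over 18 such comparisons. A difference was called where the adjusted p was below 0.05. The test covers counting only, since peaks of one chromosome are not replicates. Odds ratios are X over autosomes, with 95% intervals, and shares have exact Clopper-Pearson 95% intervals. Of the 18 comparisons 9 were called. For each of these 9 the share on X was outside the range of the 5 single autosomes.

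X peaks lay at coding 5′ ends less often than autosomal peaks did. On X 162 of 324 summits (50%, 44.4 to 55.6) were within 1000 bp of an annotated coding 5′ end, against 1021 of 1551 (65.8%, 63.4 to 68.2) on the autosomes, an odds ratio of 0.519 (0.408 to 0.661; adjusted Fisher's exact p = 5.9e-07). The share was 61.3% to 67.9% on the single autosomes. Summits on X were a median of 1021 bp away from the closest coding 5′ end, and autosomal summits 367 bp. Only 24 X peaks (7.41%) were within 100 bp of such an end, against 226 (14.6%) of the autosomal peaks. On both, summits near a 5′ end were mostly upstream of it, 84.6% on X and 87.8% on the autosomes.

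Gene density moves with this result. Bases within 1000 bp of a coding 5′ end made up 28.9% of X and 35.99% of the autosomes, so the share of peaks there was 1.73 times the share of bases on X and 1.83 times on the autosomes. In 11250 weak regions of the pooled list, which served as background, 30.8% of the 1951 on X and 36.5% of the 9299 on the autosomes were that close. The part of gene density in the difference between X and autosomal peaks was not tested.

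**Figure D1:**
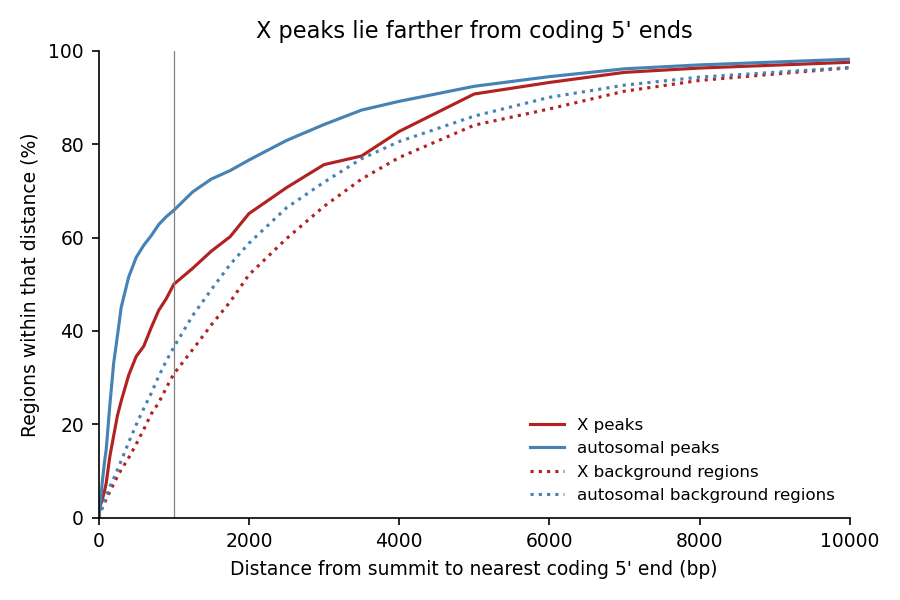
Share of regions (y axis, %) whose summit lies within a given distance of the nearest coding 5′ end (x axis, bp) for X peaks (solid red), autosomal peaks (solid blue) and weak background regions of each (dotted). At 1000 bp (grey line) the curves stand at 50% for X peaks and 65.8% for autosomal peaks, and at 30.8% and 36.5% for X and autosomal background regions.

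Peaks at starts shared by several genes were rare on X. On X 15 summits (4.63%, 2.61 to 7.52) were within 1000 bp of 2 or more coding 5′ ends, against 447 (28.8%, 26.6 to 31.1) on the autosomes, an odds ratio of 0.124 (0.0734 to 0.208; adjusted Fisher's exact p = 5.5e-24). Single autosomes had 24.8% to 31.3%. By contrast, 147 X peaks and 574 autosomal peaks had exactly 1 coding 5′ end in range. Paired starts themselves were also rarer on X: 10.4% of X coding 5′ ends and 25.6% of autosomal ones had another within 1000 bp. Bases in range of 2 or more ends made up 1.85% of X and 5.43% of the autosomes, so the share of peaks was 2.50 times that of bases on X and 5.31 times on the autosomes. The part of gene arrangement in the difference was not tested.

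X held more distant peaks. On X 113 summits (34.9%, 29.7 to 40.3) were more than 2000 bp from every coding 5′ end, against 363 (23.4%, 21.3 to 25.6) on the autosomes, an odds ratio of 1.75 (1.36 to 2.27; adjusted Fisher's exact p = 8.2e-05). The single autosomes had 21.1% to 27.8%. Such sequence is also more plentiful on X: it made up 48.6% of X bases and 41.4% of autosomal bases, and held 47.98% of X and 41.2% of autosomal background regions. Its part in the difference was not tested. Beyond 5000 bp the difference was not called, with 30 X peaks (9.26%) against 118 autosomal peaks (7.61%) and an odds ratio of 1.25 (adjusted Fisher's exact p = 0.46). Of the 113 distant X summits 58 were intergenic, 26 intronic, 24 in exons of non-coding genes and 3 in coding exons. The median signal was 98.9 for distant X peaks and 100.7 for all X peaks. On the autosomes the median was 91.8 for distant peaks and 109 for all peaks.

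Most summits on both kinds of chromosome were intergenic. Intergenic summits made up 62.0% of X peaks and 64.5% of autosomal peaks, with an odds ratio of 0.897 (0.701 to 1.15). Intergenic bases made up 41.0% of X and 31.6% of the autosomes. The share of peaks was thus 1.51 times that of bases on X and 2.04 times on the autosomes, a contrast that was not tested. Introns held 15.4% on X and 17.5% on the autosomes (odds ratio 0.864, 0.623 to 1.198), and coding exons held 7 X peaks (2.16%) and 37 autosomal peaks (2.39%). None of these 3 classes was called, with adjusted Fisher's exact p of 0.50, 0.50 and 1. Exons of non-coding genes and pseudogenes were called. They held 56 X summits (17.3%, 13.3 to 21.8) against 164 autosomal ones (10.6%, 9.09 to 12.2), an odds ratio of 1.77 (1.28 to 2.47; adjusted Fisher's exact p = 0.0023). Such exons made up 3.18% of X bases and 3.42% of autosomal bases. Of the 56 on X 40 were in genes annotated as ncRNA, 15 in tRNA genes and 1 in a lincRNA gene. Without peaks at tRNA genes the odds ratio was 1.55 and not called (adjusted Fisher's exact p = 0.063), and in the stronger part of the IDR list, its 937 strongest peaks, it was 1.80 and not called (adjusted Fisher's exact p = 0.095).

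X peaks stood at tRNA genes far more often. On X 43 summits (13.3%, 9.77 to 17.5) lay within 100 bp of a tRNA gene, against 42 (2.71%, 1.958 to 3.64) on the autosomes, an odds ratio of 5.49 (3.53 to 8.53; adjusted Fisher's exact p = 4.4e-12). No autosome exceeded 3.13%. X also has many more of these genes for its size, 276 of 612 nuclear tRNA genes (45.1%). Counted per gene, 46 of 276 tRNA genes on X (16.7%, 12.5 to 21.6) and 44 of 336 on the autosomes (13.1%, 9.68 to 17.2) had a summit within 100 bp, against 14.7% of all 612. The odds ratio per gene was 1.33 (0.849 to 2.07; Fisher's exact p = 0.25, a comparison added after the counts per peak had been seen), so the difference per gene was not past the threshold and its interval reaches 2.07.

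The tRNA peaks of X were of middling signal, from 67.6 to 256 with a median of 102.8, against 67.4 to 203 with a median of 85.6 on the autosomes. The strongest was at C04A11.t1, a tRNA-Leu gene at chrX:13665555-13665673, with its summit inside the gene, a signal of 256 and rank 266 in replicate 1 and 239 in replicate 2. Next came F41D9.t3 (tRNA-Asn, signal 255, summit 38 bp from the gene, ranks 286 and 204 in replicates 1 and 2). C53C7.t1 (tRNA-Ser) had a signal of 210 at ranks 383 and 291. W03G11.t1 (tRNA-Lys) had a signal of 191 and moved more between replicates, at ranks 613 and 226. C28G1.t1 (tRNA-Glu) had a signal of 174 at ranks 421 and 637, and was the only one of these 5 ranked better in replicate 1. Its summit was 78 bp from the tRNA gene and in a 5′ UTR, 19 bp downstream of the 5′ end of the coding gene C28G1.2. Of the 43 X summits 15 were inside the tRNA gene, and 13 (30.2%) were also near a coding 5′ end. The tRNA genes of X with a summit covered 16 amino acids, led by serine (6 of 18 genes), arginine (5 of 27), glutamate (5 of 23) and proline (5 of 20). No summit was counted at the 15 glutamine, 7 cysteine, 6 phenylalanine or 5 tryptophan tRNA genes of X.

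**Figure D2:**
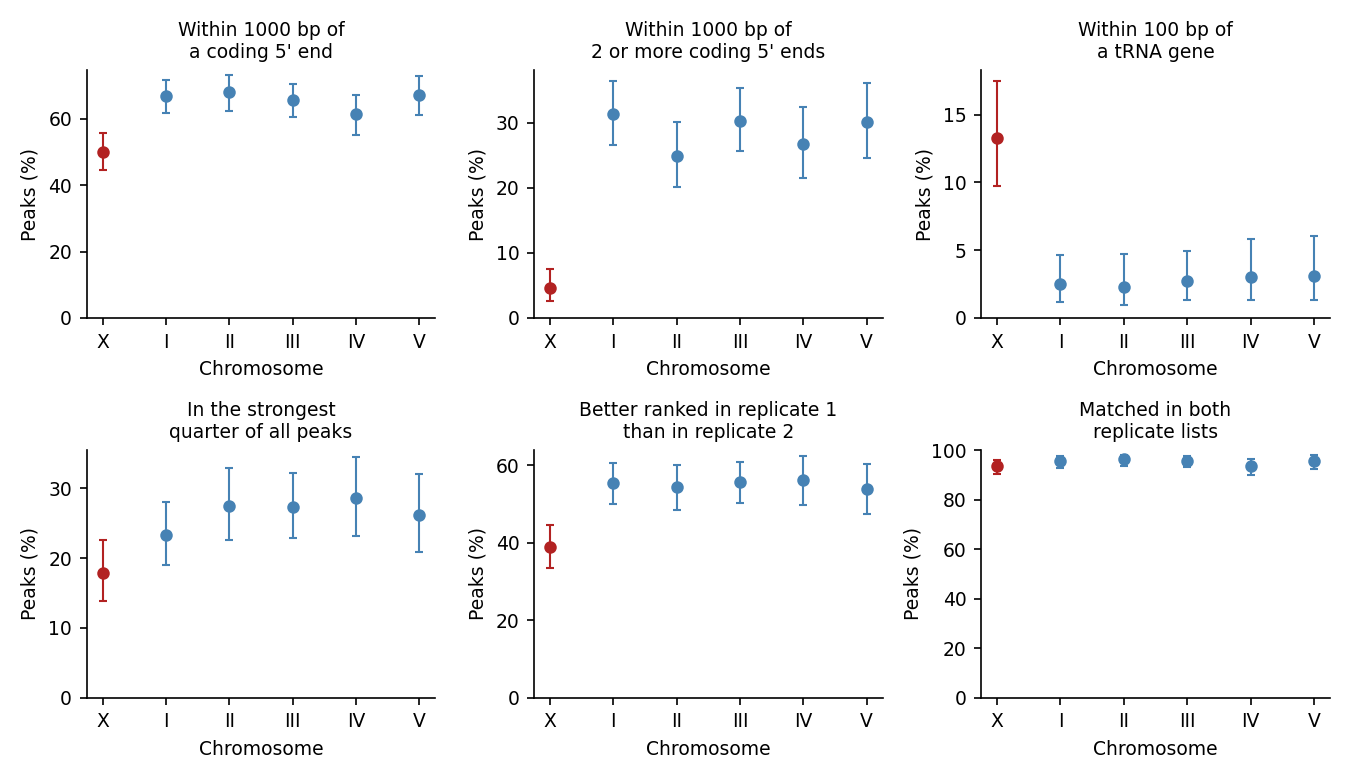
Share of peaks (y axis, %) with each of 6 properties on X (red, n = 324) and on each autosome (blue), with exact 95% intervals that cover counting error; replicate ranks are over the peaks matched in both replicates (303 on X). X stands below every autosome for coding 5′ ends, shared starts, the 468 strongest peaks and better ranks in replicate 1, and above every autosome for tRNA genes. The last panel, on matching in both replicates, has 93.5% on X and 93.6% to 96.4% on the autosomes.

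X peaks were somewhat weaker. Peak signal is the caller's own value in the authors' pooled list, so it served only to order and describe peaks. Of the 324 X peaks 58 (17.9%, 13.9 to 22.5) were among the 468 strongest of the list, against 410 of 1551 (26.4%, 24.3 to 28.7) on the autosomes, an odds ratio of 0.610 (0.450 to 0.828; adjusted Fisher's exact p = 0.0023). Single autosomes had 23.3% to 28.6%. The median signal was 100.7 on X and 109 on the autosomes, and the highest was 597 on X, at rank 21, against 1072 on the autosomes. With the strongest regions of replicate 2 alone the odds ratio was 0.772 and was not called (adjusted Fisher's exact p = 0.15). With those of replicate 1 alone it was 0.552 and was called (adjusted Fisher's exact p = 0.00026). The difference between the replicates was not tested. For the 187 strongest peaks of the IDR list the odds ratio was 0.623 and was also not called (adjusted Fisher's exact p = 0.082). At the weak end, the last X peak inside the list had a signal of 66.4 at rank 1863, and the first X region outside it 66.2 at rank 1876.

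On the autosomes the stronger peaks were more often at gene starts, and on X they were not. The list was divided by signal at ranks 468, 937 and 1406. From the strongest group to the weakest, the share of peaks near a coding 5′ end was 48.3%, 54.9%, 46.1% and 50.5% on X, and 79.0%, 68.7%, 58.7% and 55.6% on the autosomes. On X 28 of the 58 among the 468 strongest peaks and 134 of the other 266 were near a coding 5′ end, an odds ratio of 0.921 (0.524 to 1.62). On the autosomes 324 of 410 and 697 of the other 1141 were, an odds ratio of 2.39 (1.83 to 3.12). The difference between these odds ratios was tested by Zelen's exact test, two-sided, added after the shares had been seen: the ratio of X over autosomes was 0.385 (exact p = 0.0032). With the list of replicate 1 alone, that is without replicate 2, the ratio was 0.570 and was not past the threshold (exact p = 0.095).

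The 20 strongest X peaks lay mostly away from gene starts. Of these 16 were intergenic, 2 intronic, 1 in a coding exon and 1 in a non-coding exon. A coding 5′ end was within 1000 bp of 7 summits, and 10 summits were more than 2000 bp from any. The strongest, at chrX:4209147-4209399, had a signal of 597 and lay 1785 bp upstream of F20B6.9, at rank 37 in replicate 1 and 10 in replicate 2. The second was in an intron 3382 bp upstream of the 5′ end of cest-16, a carboxylesterase gene (chrX:6296442-6296649, signal 546, ranks 44 and 19). The third lay 734 bp upstream of nspc-17, a gene of the nematode-specific peptide group c (chrX:14525790-14526003, signal 504, ranks 57 and 24). All 3 were higher in the order of replicate 2.

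Next in signal were a summit 4002 bp downstream of the 5′ end of W02H3.3 (490) and one 289 bp upstream of puf-9, which encodes a Pumilio-family RNA-binding protein (471). The puf-9 summit was inside the ncRNA gene W06B11.7. Then came summits 2662 bp downstream of the 5′ end of Y41G9A.17 (signal 448), 2530 bp downstream of that of ZK899.6 (442) and 3921 bp downstream of that of gtr-1, a G-protein-coupled receptor gene (415). One in a coding exon lay 15194 bp upstream of C41A3.2 (390), the farthest of all X peaks from a coding 5′ end. The tenth, at chrX:8036328-8036502 with a signal of 369, was intergenic, 4923 bp upstream of xol-1, the switch gene of sex determination and dosage compensation.

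The peaks from the eleventh to the twentieth had signals from 352 down to 319. Those close to a gene start were at serp-1.1 (292 bp upstream), hsp-3 (21 bp upstream; the endoplasmic reticulum chaperone BiP), rpl-11.2 (376 bp upstream; a protein of the large ribosomal subunit), bet-2 (436 bp upstream; a bromodomain protein) and epn-1 (458 bp upstream; the endocytic adaptor epsin). The summit at rpl-11.2 was 121 bp from the ncRNA gene AH9.7, and that at epn-1 was 9 bp from the ncRNA gene T04C10.8. The other 5 had F55G7.5 (1402 bp), K02D3.1 (6054 bp), W01H2.2 (4520 bp), F22H10.2 (2545 bp) and hil-3, a linker histone gene (1849 bp), as the nearest coding 5′ end. None of the 20 was at a tRNA gene.

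GCGCAGGG, the core of the MEX motif, stood in exact form at 1 autosomal peak and at most of the 10 strongest X peaks. It was searched on both strands, and no motif searched contains another. Within 50 bp of the summit it stood at 12 of 324 X peaks (3.70%, 1.93 to 6.38) and at 1 of 1551 autosomal peaks (0.0645%, 0.00163 to 0.359), an odds ratio of 41.3 (7.57 to 226; adjusted Fisher's exact p = 3.9e-08). The 1 autosomal peak was on chromosome III at sma-2. The size of the odds ratio depends on an exact match: with 1 mismatch allowed, an alternative chosen after seeing the data, 46 X peaks (14.2%) and 126 autosomal peaks (8.12%) held the word, an odds ratio of 1.88 (adjusted Fisher's exact p = 0.0023). With windows of 25 bp and 100 bp either side it was 24.4 and 23.7. Of the 10 strongest X peaks 7 held it, and 8 did within 100 bp. The 12 peaks had a median signal of 391.7, against 99.4 for the other 312 X peaks. In background regions the share was 0.0513% on X and 0.0753% on the autosomes, and in windows of the same length tiled over the chromosomes it was 0.0388% on X and 0.0263% on the autosomes.

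Most copies of the word had no peak beside them. X has 81 occurrences and the autosomes 233, or 4.57 per Mb on X and 2.82 on the autosomes. An IDR summit lay within 50 bp of the midpoint of 15 of the 81 on X (18.5%, 10.8 to 28.7), against 1 of the 233 on the autosomes (0.429%, 0.0109 to 2.37). With any region of the pooled list, background included, these were 26 on X and 15 on the autosomes. The counts per peak above need the whole word inside the window, so a copy at its edge counts here only.

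The 12 X peaks with GCGCAGGG were far from gene starts: 10 were more than 1000 bp and 7 more than 2000 bp from every coding 5′ end, 9 were intergenic and 3 intronic. The 7 strong ones are those at F20B6.9, cest-16, nspc-17, W02H3.3, Y41G9A.17, gtr-1 and xol-1. The other 5 were weaker and were named after ins-39 (signal 239), col-185 (151), dpy-23 (110), T24D8.6 (106) and WBGene00020828 (87.4). In 6 of the 12 the word was within 20 bp of the summit, and the cest-16 and xol-1 windows held 2 copies each. Without these peaks the ratio of odds ratios between X and autosomes, of strong over other peaks near a coding 5′ end, was 0.432 (Zelen's exact p = 0.014). No list of mapped recruitment elements was used here, so none of these peaks is named as one.

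A related word, GCGAAGGG, was seen in the printed windows and is described without a test. It stood at 11 of 324 X peaks (3.40%) and 3 of 1551 autosomal peaks (0.193%), and at 6 of the 10 strongest X peaks. Either word stood at 19 X peaks (5.86%), at 4 autosomal peaks (0.258%) and at 9 of the 10 strongest X peaks. The 10 strongest include the 6 whose windows were printed and gave the word. The X counts, above all those among the 10 strongest, are therefore partly fixed by that choice. The background shares of GCGAAGGG were 0.154% on X and 0.0860% on the autosomes.

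**Figure D3:**
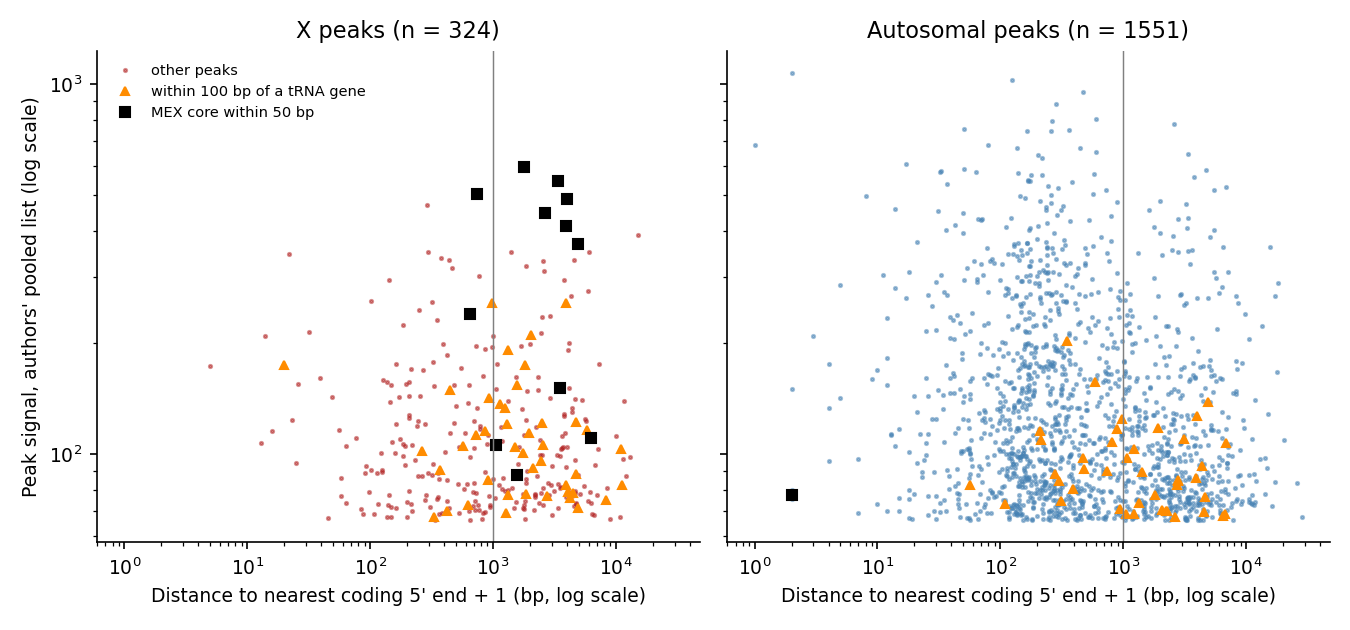
Peak signal in the authors' pooled list (y axis, log scale) against distance to the nearest coding 5′ end plus 1 bp (x axis, log scale) for the 324 X peaks (left) and 1551 autosomal peaks (right); the grey line is at 1000 bp, orange triangles are peaks within 100 bp of a tRNA gene and black squares are peaks with the MEX core within 50 bp. On X 7 of the 10 highest points are black squares and 6 of these lie right of the line, while on the autosomes 79.0% of those among the 468 strongest peaks lie left of it.

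AAGTT, the core of the sites bound by the MYT1 family, was rarer at X summits. It stood within 50 bp of 19 X summits (5.86%, 3.57 to 9.01) and 229 autosomal summits (14.8%, 13.0 to 16.6), an odds ratio of 0.368 (0.228 to 0.594; adjusted Fisher's exact p = 1.6e-05). Single autosomes had 12.1% to 16.9%. Both were below background regions, where the share was 30.8% on X and 31.9% on the autosomes. Base composition moved with it: G and C made up 51.2% ± 7.22 of the window at X peaks and 48.4% ± 7.92 at autosomal peaks (SD over 324 and 1551 windows), and its part in the difference was not tested. With the list of replicate 2 alone the shares were 10.8% on X and 14.1% on the autosomes, not called (odds ratio 0.751, adjusted Fisher's exact p = 0.21). With that of replicate 1 alone they were 7.52% and 15.9%, called (odds ratio 0.439, adjusted Fisher's exact p = 0.00013). The difference between the replicates was not tested.

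The other 4 motifs were not called between X and autosomes. GAGAGA stood at 25% of X peaks and 23.6% of autosomal peaks, against 5.07% and 5.86% of X and autosomal background regions. CTGCGTCT stood at 6.17% of X peaks and 9.28% of autosomal peaks, against 0.359% and 0.731% of X and autosomal background regions. GGCGGG, as in binding sites of the Sp1 family, stood at 7.41% of X peaks and 7.80% of autosomal peaks. Its background shares were 2.05% on X and 2.40% on the autosomes. GTTCNANNC, the box B of tRNA gene promoters, stood at 5.25% of X peaks and 4.13% of autosomal peaks. Its background shares were close to these, at 4.56% on X and 3.81% on the autosomes. Peaks were not tested against background. Between X and autosomal peaks the adjusted Fisher's exact p of the 4 motifs was 0.69, 0.15, 0.96 and 0.50 in that order. In 201 bp windows, 100 bp either side of the summit, GAGAGA (43.2% on X, 35.6% on the autosomes, adjusted Fisher's exact p = 0.020) and GTTCNANNC (14.5% on X, 7.87% on the autosomes, adjusted Fisher's exact p = 0.00085) were called. With peaks at tRNA genes left out, GTTCNANNC stood within 50 bp of 2.49% of X summits and 2.92% of autosomal summits. The wider windows were not counted without those peaks.

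The replicates held most X peaks, and no difference from the autosomes was called. The peaks come from a list chosen for reproducibility, so high shares of matches are built into it on X and the autosomes alike. With any overlap of 1 bp as a match, the shares in the full lists were 99.7% on X and 99.6% on the autosomes. A match within 100 bp was found in the full lists of both replicates for 303 of 324 X peaks (93.5%, 90.3 to 95.9) and 1480 of 1551 autosomal peaks (95.4%, 94.3 to 96.4), an odds ratio of 0.682 (0.414 to 1.12; adjusted Fisher's exact p = 0.24). Among the 1875 strongest regions of both replicates a match was found for 213 X peaks (65.7%) and 1085 autosomal peaks (69.95%), an odds ratio of 0.823 (0.639 to 1.06; adjusted Fisher's exact p = 0.24). With summits matched within 50 bp both were called, with odds ratios of 0.689 (adjusted Fisher's exact p = 0.027) and 0.743 (adjusted Fisher's exact p = 0.032). Of the 21 X peaks not matched in both, 15 were found only in replicate 1 and 6 only in replicate 2. Across the matched peaks Spearman's rho of the replicate ranks was 0.67 on X and 0.72 on the autosomes, given as a description since the peaks share 2 libraries.

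X peaks were more often ranked better in replicate 2, and autosomal peaks in replicate 1. Of the matched peaks, 118 of 303 on X (38.9%, 33.4 to 44.7) had a better rank in replicate 1 than in replicate 2, against 816 of 1480 (55.1%, 52.6 to 57.7) on the autosomes, an odds ratio of 0.520 (0.404 to 0.669; adjusted Fisher's exact p = 1.0e-06). The 5 autosomes lay together, from 53.9% to 56.2%. The median log2 ratio of the rank in replicate 2 to that in replicate 1 was −0.22 on X and 0.11 on the autosomes. All 20 of the strongest X peaks were ranked better in replicate 2, none worse than rank 220 in replicate 1 and 143 in replicate 2. At tRNA genes the share ranked better in replicate 1 was 9 of 41 on X and 20 of 40 on the autosomes, and at X peaks with GCGCAGGG it was 3 of 12.

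Below the IDR list the shares on X and the autosomes lay closer to each other, with no test of the difference. In the next 1875 pooled regions the share better in replicate 1 was 55.3% on X and 54.6% on the autosomes, and in the 3750 after those it was 50.4% on X and 52.5% on the autosomes. X made up 17.01% of the 1875 strongest regions of replicate 1 and 17.7% of those of replicate 2, and 16.5% and 17.7% of the full lists of replicates 1 and 2, against 17.7% of nuclear bases. Read depth per replicate is unknown from these lists, and its part in the rank order was not tested.

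Single X peaks differed most in the other direction. The peak 303 bp upstream of mbk-1, a DYRK-family kinase gene, had rank 1621 in replicate 1 and 23190 in replicate 2. An intronic peak 243 bp past the start of unc-84 had ranks 902 and 9456, and one in an intron with ZK470.4 as its nearest coding 5′ end had ranks 1314 and 11537. All 3 were weak in the pooled list, at ranks 1674, 1241 and 1576.

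**Figure D4:**
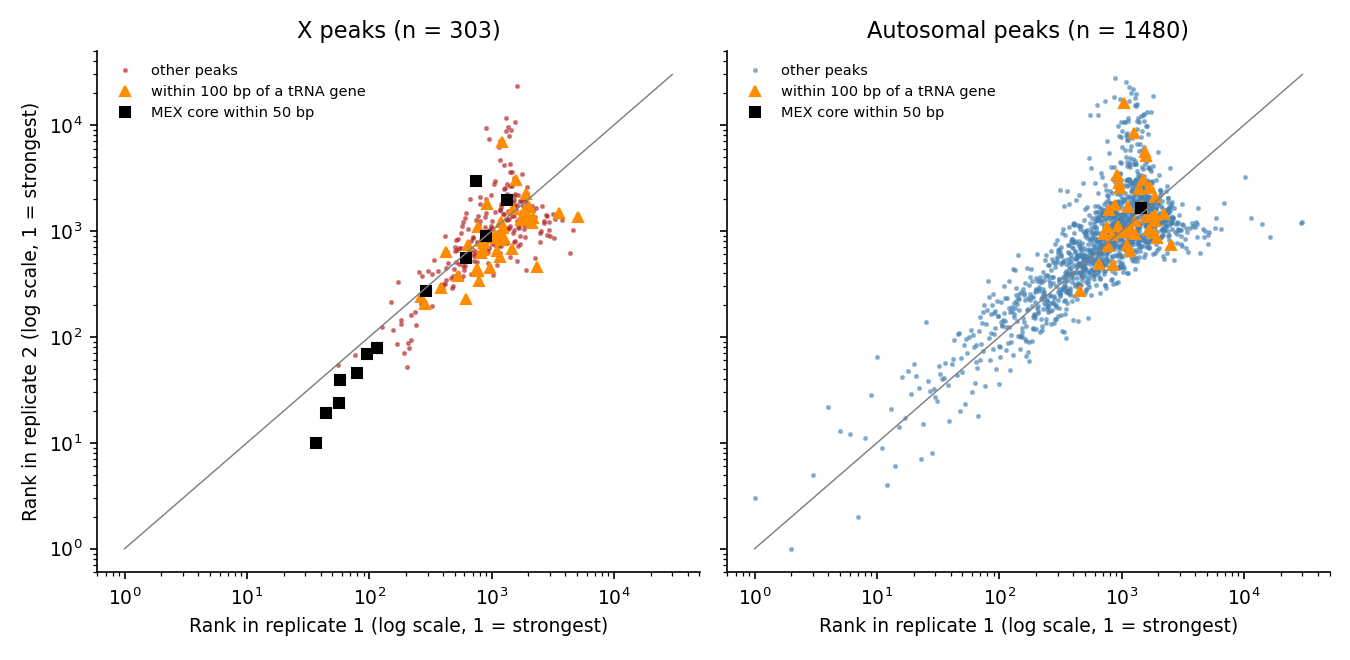
Rank of each peak in replicate 1 (x axis, log scale) and in replicate 2 (y axis, log scale; 1 is the strongest region) for the 303 X peaks (left) and 1480 autosomal peaks (right) matched in both, with tRNA gene peaks as orange triangles, MEX core peaks as black squares and the line of equal rank in grey. On X the 20 strongest peaks all lie below the line, so were ranked better in replicate 2, and 38.9% of X peaks lie above it, against 55.1% of autosomal peaks.

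On X 170 of 2731 coding genes (6.22%) had an IDR summit within 1000 bp, against 8.09% of the 19973 coding genes of all chromosomes. The lists below are described by their counts on X and carry no test. Several hold too few X genes for their shares to be told from that background. Lists of vacuolar ATPase, neuropeptide, collagen, nuclear hormone receptor, ceh homeobox and chemoreceptor genes were drawn by gene name prefix. Family members with other names are not on them.

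Among genes of the X signal and dosage compensation 1 of 6 on X had a peak, sdc-2, which brings the dosage compensation complex to X (386 bp upstream, signal 69.3, ranks 2759 and 1400 in replicates 1 and 2). The X-linked sex-1, fox-1, ceh-39, xol-1 and sdc-1 had no summit in range, and the summit nearest to the 5′ end of xol-1 was 4720 bp away. That summit belongs to a weaker peak (signal 122) beside the one 4923 bp upstream that is among the 20 strongest. The weaker peak overlaps the stronger one, and its summit is also within 100 bp of a tRNA-Arg gene. Of 6 heterochronic genes, which time larval development, 2 had one: ain-1, a GW182 protein of the microRNA complex (981 bp upstream, signal 194, ranks 338 and 533), and alg-1, a microRNA Argonaute (710 bp upstream, signal 70.6, ranks 1830 and 1530). The nearest summits to lin-14 and daf-12 were 1895 bp and 1587 bp away, outside the range, and hbl-1 and kin-20 had none in range either.

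Of 13 neurogenesis and neuron fate factors on X 1 had a peak, lin-32, the Atonal-type proneural factor. It had 2 summits in range, the stronger intronic and 620 bp past the gene start (signal 137, ranks 735 and 649). The factors unc-3, ttx-3, lim-4, lim-6 and ceh-14 had none. Of 33 X genes on a list named neuronal function and wiring 3 had one. Among them were syd-2, the liprin of presynaptic assembly (476 bp upstream, signal 154, ranks 674 and 396), and unc-115, an actin-binding protein of axon guidance (48 bp upstream, signal 142). Also counted was unc-84, a SUN-domain protein of the nuclear envelope (638 bp upstream, signal 153, ranks 525 and 667). The list is thus wider than its name, and 3 of 33 is not a count of neuronal genes only. The unc-115 peak was matched only in replicate 1, at rank 537. Among those without were unc-1, unc-2, unc-6, unc-7 and unc-9. Of 34 neuropeptide genes 1 had a peak, the insulin-like gene ins-39 (644 bp upstream, signal 239, ranks 291 and 269). flp-11, flp-12, flp-18, flp-19 and flp-2 were among those without.

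Of 11 transcription factors of somatic tissues 2 had a peak, the bHLH genes mdl-1 (57 bp upstream, signal 86.1, ranks 2278 and 555) and mxl-3 (830 bp downstream in a coding exon, signal 69.1, ranks 1435 and 9063). The gut and epidermal factors elt-2, elt-3 and elt-4 had none, nor had fkh-2 or nhr-25. Of 21 signalling genes 3 had one: dpy-23, the clathrin adaptor subunit AP2 mu (323 bp upstream, signal 177, a different peak from the one with GCGCAGGG), lin-18, the Ryk-type Wnt receptor (689 bp upstream, signal 72.2), and mom-1, the Porcupine homolog needed to secrete Wnt (758 bp upstream, signal 72.8, at a summit nearer to lev-9). bar-1, egl-17, lin-2, sel-7 and sel-12 had none. Of 9 synMuv and chromatin genes 2 had one: utx-1, a histone H3 lysine demethylase (297 bp upstream, signal 88.9), and lin-15B, a repressor of the synMuv B class (943 bp upstream, signal 71.8). lin-15A, hpl-1, hda-4, chd-3 and jmjd-3.1 had none.

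Of 16 genes of muscle, cytoskeleton and matrix 2 had a peak, the actin gene act-4 (12 bp upstream, signal 107) and the profilin gene pfn-2 (645 bp upstream, signal 98.4, matched only in replicate 1), while unc-97, unc-78, let-2, myo-2 and mup-2 had none. Of 23 nuclear hormone receptor genes 2 had one, nhr-48 (593 bp upstream, signal 114) and nhr-1 (350 bp upstream, signal 75.6, ranks 1175 and 7020). Of 27 collagen genes 1 had one, col-185 (912 bp upstream, signal 84.998, a different peak from the one with GCGCAGGG), and of 3 vacuolar ATPase genes 1, vha-12 (332 bp upstream, signal 152). None of the 18 ceh homeobox genes and none of the 33 chemoreceptor genes on X had one.

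Lists of ribosomal protein, respiratory chain and proteasome genes, 3 housekeeping families, were also drawn by gene name prefix. Their members lie almost wholly on the autosomes. X holds 2 of the 81 ribosomal protein genes, and 1 of these, rpl-11.2, was among the 20 strongest X peaks, while rpl-25.1 had no summit in range. Over all chromosomes 49 of the 81 had a peak. X holds none of the 29 genes on the respiratory chain list, of which 13 had a peak. It holds none of the 33 on the proteasome list, of which 12 had one. The prefixes miss some respiratory chain genes. Among these, sdha-1 (205 bp upstream, signal 128) and ucr-2.2 (204 bp upstream, signal 143) are on X and had a peak. The sdha-1 summit was inside the ncRNA gene D2021.5. Only missed genes with a peak are named here. Those on X without a peak were not counted, so no share can be drawn from these genes.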

How the data were processed

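The authors deposited 4 lists of regions per build (replicate 1, replicate 2, both pooled, and the IDR list) on ce10 and ce11, each called with a control alignment, per the text notes deposited with the samples. No source used here names the caller, the aligner or the threshold. The labels' description names an antibody to GFP, although the antibody tag reads ztf-11. The deposited signal per region is the caller's own score and was used only to rank regions within a list. The deposited −log10 of the q-value has a ceiling in every list, so no result rests on it. The lists carry no read depth, the control was not analysed, and intervals cover counting error only.

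Summits were the start plus the deposited offset, written 1-based on ce11. Genes came from Ensembl release 115 of WBcel235, with 19973 coding genes, and missing names and tRNA products from RefSeq by WormBase ID. A summit took the first of coding exon, 5′ UTR, 3′ UTR, non-coding or pseudogene exon, intron and intergenic that held it. For trans-spliced genes the annotated 5′ end may be downstream of where transcription begins. Regions of 2 lists were matched where the nearest summits lay within 100 bp. Background regions were those of the pooled list ranked after 18750. Odds ratios were computed with 0.5 added to every cell, and their intervals by the normal approximation. Fisher's exact test and Zelen's exact test of equal odds ratios used scipy 1.17.1, and the code was tested on simulated data.

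Named genes were those nearest to the 20 strongest X peaks, X members of 17 gene lists with a peak (the strongest summit in range is given) and up to 5 without in list order, and the strongest distant and tRNA peaks. The genes sdha-1 and ucr-2.2 were named outside this rule. The X peaks, lists, motifs and rules were chosen with earlier results of these data known. The alternatives were other distances, windows and matching rules, part of the IDR list, peaks away from tRNA genes, and the list of each replicate alone.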

Additional observations from a re-analysis of the deposited data

Results flagged for a closer look

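The relation of peak signal to gene starts differed between X and the autosomes by Zelen's exact test of equal odds ratios (exact p = 0.0032, ratio of odds ratios 0.385). Of the 468 strongest peaks those on X were near a coding 5′ end in 48.3% of cases, against 50.4% of the other X peaks. On the autosomes these shares were 79.0% and 61.1%. The test was chosen after the shares had been seen, and without replicate 2 it was not past the threshold (exact p = 0.095).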

How the results depend on the processing

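Over 20 results, 109 alternatives were run; 87 left the direction and the call in place. Values are odds ratios of X over autosomes. Calls were lost for the 468 strongest peaks (0.623 for the 187 strongest, 0.772 without replicate 1) and non-coding exons (1.80 in the strongest 937 peaks, 1.55 without tRNA peaks). They were also lost for distant peaks (1.25 at 5000 bp), AAGTT (0.751 without replicate 1) and the ratio of odds ratios (0.570 without replicate 2). Without replicate 2 the calls for the 468 strongest peaks (0.552) and AAGTT (0.439) were kept. Calls were gained with summits matched within 50 bp (0.689 in the full lists, 0.743 among the strongest regions) and with 100 bp windows (1.38 for GAGAGA, 2.00 for GTTCNANNC). Results that were not called changed direction: coding exons without tRNA peaks (1.103); GAGAGA without replicate 1 (0.942), without replicate 2 (0.880), in the strongest 937 peaks (0.977) and without tRNA peaks (0.9998); GGCGGG without tRNA peaks (1.12) and with 25 bp (1.12) or 100 bp windows (1.03); GTTCNANNC in the strongest 937 peaks (0.830) and without tRNA peaks (0.8998); and tRNA genes with a summit inside them (0.965). The cause was not tested. The ce10 lists, GCGCAGGG with 1 mismatch, and the alternatives per tRNA gene and to Zelen's test were chosen after seeing the data. GCGCAGGG stayed called under all 7 alternatives, with odds ratios of 1.88 with 1 mismatch and 23.7 to 52.8 otherwise, apart from the strongest 937 peaks, where the autosomal count was 0 of 797 and the added 0.5 sets the size. No paired analysis was possible because there was 1 group. Only 2 replicates of unknown depth bear on single peaks.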
